A study of Homo sapiens and Mus musculus with 74 samples.

Results

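The immunoglobulin gene segments of the mouse were followed through kidney and brain libraries of wild-type (WT) and Rpl41 knockout (KO) mice. All genes that the GENCODE M21 annotation types as an immunoglobulin variable (V), diversity (D), joining (J) or constant (C) gene were taken, which gave 264 of the 55174 genes and 366 of the 142604 transcripts in the mouse count table. They comprised 218 V, 19 D, 14 J and 13 C genes. On GRCm38 the heavy chain locus held 144 of them (chr12:113254830-116000461), the kappa light chain locus 108 (chr6:67555497-70726966) and the lambda light chain locus 12 (chr16:19061618-19260859). At least 1 read was counted for 240 of the 264 genes in the 30 mouse libraries. The 24 genes without any read were 5 V, 16 D and 3 J genes. The members were chosen by annotation alone, but the family was selected on its KO against WT values in kidney Ribo-seq, where some of its transcripts had been seen to be higher, so the members' difference there is given below as a description, without p-values, and the counts of calls in it are no support for a change.

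Immunoglobulins are the antibodies that cells of the B lineage display on their surface and that plasma cells secrete in bulk. A developing B cell joins a V, a D and a J segment at the heavy chain locus, and a V and a J segment at a light chain locus. The joined exon is spliced to a C exon, and the heavy chain C gene that is used sets the isotype: IgM and IgD on naive cells, and IgG, IgE or IgA after class switching. IgA is the isotype of mucosal surfaces, where it travels across epithelium bound to the polymeric immunoglobulin receptor together with the joining chain. A clone is marked by its rearranged junction and many clones can use the same V segment, so reads on V segments show which germline segments were used, and reads on C genes show the isotype.

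RNA-seq measured polyadenylated RNA, Ribo-seq measured the fragments protected by single ribosomes after RNase I digestion, and disome-seq measured the longer fragments protected by 2 stacked ribosomes. The tissues came from 10-week-old male mice of the C57BL/6J strain that were WT or Rpl41-/-, a germline deletion of the whole Rpl41 coding sequence made with CRISPR-Cas9 in zygotes, and no other allele or treatment was given for either genotype. RNA-seq and Ribo-seq covered kidney and brain, and disome-seq covered kidney, with 3 libraries per genotype in each, so 30 of the 74 samples of the series were used. The labels do not tie the replicate numbers to named animals, so p-values measure the spread between these libraries only.

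Rpl41 served as the check of the genotypes. In kidney RNA-seq it stood at 118, 147 and 82.2 CPM (counts per 1000000 counts of the library) in WT, against 0.0545, 0.0644 and 0.177 CPM in KO (log2 fold change -10.05, adjusted p = 0.000240 by the edgeR quasi-likelihood test, adjusted after Benjamini and Hochberg across every transcript tested). The adjusted p in the other 4 KO against WT comparisons ranged from 4.06e-10 to 0.000176. Library totals ran from 44998381 to 55077048 counts in kidney RNA-seq, 11036643 to 42452425 in kidney Ribo-seq, and 1187636 to 3018963 in disome-seq. Brain totals were 84433838 to 123745890 counts for RNA-seq and 9498663 to 35881929 for Ribo-seq. A floor of 3 counts corresponded to 0.0545 to 0.0667 CPM in kidney RNA-seq and to 0.0707 to 0.272 CPM in kidney Ribo-seq. In kidney RNA-seq, KO replicates 2 and 3 held 11 and 0 reads on V segments against 91 to 120 in the other 4 libraries, and their share of mitochondrial ribosomal RNA was 1.77% and 1.67% against 0.436% to 0.962%. In kidney Ribo-seq, KO replicates 2 and 3 were the deepest libraries. WT replicate 1 carried footprints of pancreatic enzymes in both tissues, with the 14 listed pancreas genes summing to 253 CPM in kidney and 84.8 CPM in brain Ribo-seq.

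Immunoglobulin footprints were more abundant in KO kidneys, whereas the totals of immunoglobulin RNA overlapped between the genotypes. In kidney Ribo-seq the 366 member transcripts summed to 40.8, 53.3 and 28.8 CPM in WT and to 80.5, 85.6 and 95.1 CPM in KO. The 3 KO libraries lay above the 3 WT libraries, with means of 87.0 ± 7.44 and 41.0 ± 12.2 CPM (SD, n = 3 each), a ratio of 2.12. In kidney RNA-seq the same sum was 18.5, 28.1 and 17.4 CPM in WT and 29.7, 14.6 and 24.0 CPM in KO. The genotypes overlapped and the ratio of the means was 1.07, a log2 difference of 0.09 against a pooled SD of 0.46. In bulk tissue, a change in the number of antibody-making cells cannot be told apart from a change in immunoglobulin RNA per cell.

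Kidney disome footprints of the family summed to 17.9, 23.5 and 13.6 CPM in WT and to 36.1, 17.0 and 32.8 CPM in KO, which overlapped, with a ratio of the means of 1.56. In brain RNA-seq the sums were 15.1, 15.6 and 16.9 CPM in WT against 17.0, 14.3 and 16.0 CPM in KO. In brain Ribo-seq they were 11.5, 8.74 and 11.8 CPM in WT against 9.94, 8.28 and 6.80 CPM in KO. Both brain readouts overlapped between genotypes, with ratios of 0.991 and 0.782. In an exact two-sided permutation test, 3 libraries against 3 cannot give a p below 0.1, so no test was run on these sums.

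**Figure D1:**
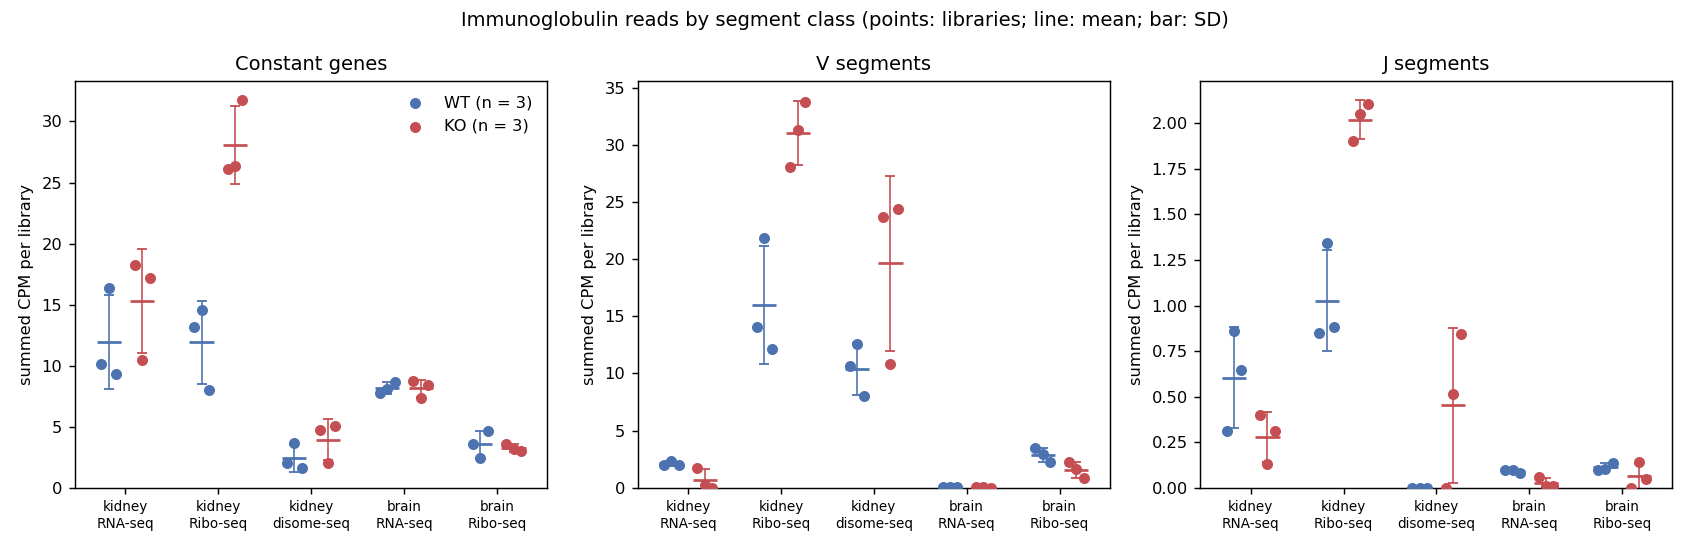
Summed level of constant, variable and joining segments (1 transcript per gene, CPM) in each library, by tissue, assay and genotype; points are libraries, WT in blue and KO in red, and bars give the mean and SD of 3 libraries. In kidney Ribo-seq the KO points of C segments (26.1 to 31.8 CPM) and of V segments (28.1 to 33.7 CPM) all lie above the WT points (8.03 to 14.5 and 12.2 to 21.9 CPM), while in kidney RNA-seq the V segments of KO replicates 2 and 3 lie at 0.236 and 0 CPM.

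When split by kind of segment, with 1 transcript taken per gene so that reads in shared exons were counted once, constant and variable segments behaved alike in kidney footprints and differently in kidney RNA. C segments gave 13.1, 14.5 and 8.03 CPM of footprints in WT and 26.1, 26.3 and 31.8 CPM in KO. V segments gave 14.0, 21.9 and 12.2 CPM in WT and 28.1, 31.3 and 33.7 CPM in KO. J segments gave 0.85, 1.35 and 0.884 CPM in WT and 1.90, 2.05 and 2.11 CPM in KO. In each of these 3 classes the KO libraries lay above the WT libraries. In kidney RNA-seq, C segments stood at 10.2, 16.3 and 9.33 CPM in WT and 18.3, 10.5 and 17.2 CPM in KO, which overlapped. V segments stood at 2.00, 2.34 and 2.02 CPM in WT against 1.76, 0.236 and 0 CPM in KO, so that here the KO libraries lay below the WT libraries.

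The most abundant constant segments of the kidney were Igkc (chr6:70726435-70726966, plus strand), the only constant exon of kappa light chains, and Igha (chr12:113258702-113260236, minus strand), the constant gene of IgA. Per kilobase of transcript, Igkc RNA stood at 5.15, 9.61 and 6.81 CPM in WT kidneys and at 14.9, 10.4 and 14.4 CPM in KO kidneys. All KO libraries were above all WT libraries, but the difference did not pass the threshold (log2 fold change 1.03 ± 0.28 SE, edgeR adjusted p = 0.292). Igha RNA stood at 3.02, 4.84 and 2.59 CPM per kb in WT and at 5.25, 2.46 and 5.05 in KO, overlapping, with a log2 fold change of 0.43 ± 0.36 (edgeR adjusted p = 0.496). Ighm (chr12:113418558-113422730, minus strand), the constant gene of IgM, stood at 1.49, 1.88 and 1.13 CPM per kb in WT and 1.94, 0.835 and 1.32 in KO, and its fitted difference was near 0 (log2 -0.00 ± 0.35, edgeR adjusted p = 0.994).

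Across the family, 8 of the 366 transcripts had enough reads to be tested in kidney RNA-seq and 0 were called at an adjusted p under 0.05, where 0.00992% of all 70545 transcripts tested were called. Of the 8, 1 had an unadjusted p under 0.05, and DESeq2 called 0 of the 5 to which it gave an adjusted p. Their log2 fold changes were positive for 4 and negative for 4, with a median of 0.15 against -0.03 over all transcripts tested. The libraries did not overlap for 2 of the 8. Igkc lay above in KO, where 6.36% of all transcripts did so. Iglv1 lay below in KO, where 14.3% did so (log2 fold change -2.67 ± 1.17, edgeR adjusted p = 0.297, with 13, 36 and 11 reads in WT and 9, 0 and 0 in KO). Without KO replicate 1, Iglv1 was called (log2 fold change -7.21, edgeR adjusted p = 0.0293). In that fit 12466 of all 73294 transcripts were called, against 7 in the main fit. It left only KO replicates 2 and 3, which held 11 and 0 reads on V segments.

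In kidney footprints, expressed per kilobase of coding sequence, Igkc gave 9.42, 13.7 and 10.1 CPM in WT and 22.4, 22.4 and 29.0 CPM in KO, a mean of 11.1 ± 2.28 against 24.6 ± 3.85 (SD, n = 3 each). Igha gave 5.96, 7.31 and 3.22 CPM per kb in WT and 14.7, 15.3 and 19.1 in KO, a mean of 5.49 ± 2.09 against 16.4 ± 2.38. The genotypes were separated for both genes. Ighm footprints, at 1.19, 0.519 and 0.516 CPM per kb in WT and 2.03, 1.06 and 0.391 in KO, overlapped. The fitted log2 fold changes, given as descriptions, were 1.64 ± 0.20 for Igha-201 and 1.26 ± 0.18 for Igkc. Of the 15 member transcripts with enough reads, edgeR marked 5, all of them higher in KO (both Igha transcripts, Igkc, Igkv1-110 and Igkv1-117), and 5 lay above in KO without overlap and 0 below. Over all transcripts 7.76% were called, 9.87% lay above and 19.5% below, and since the family was selected on these values nothing is read from its counts.

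**Figure D2:**
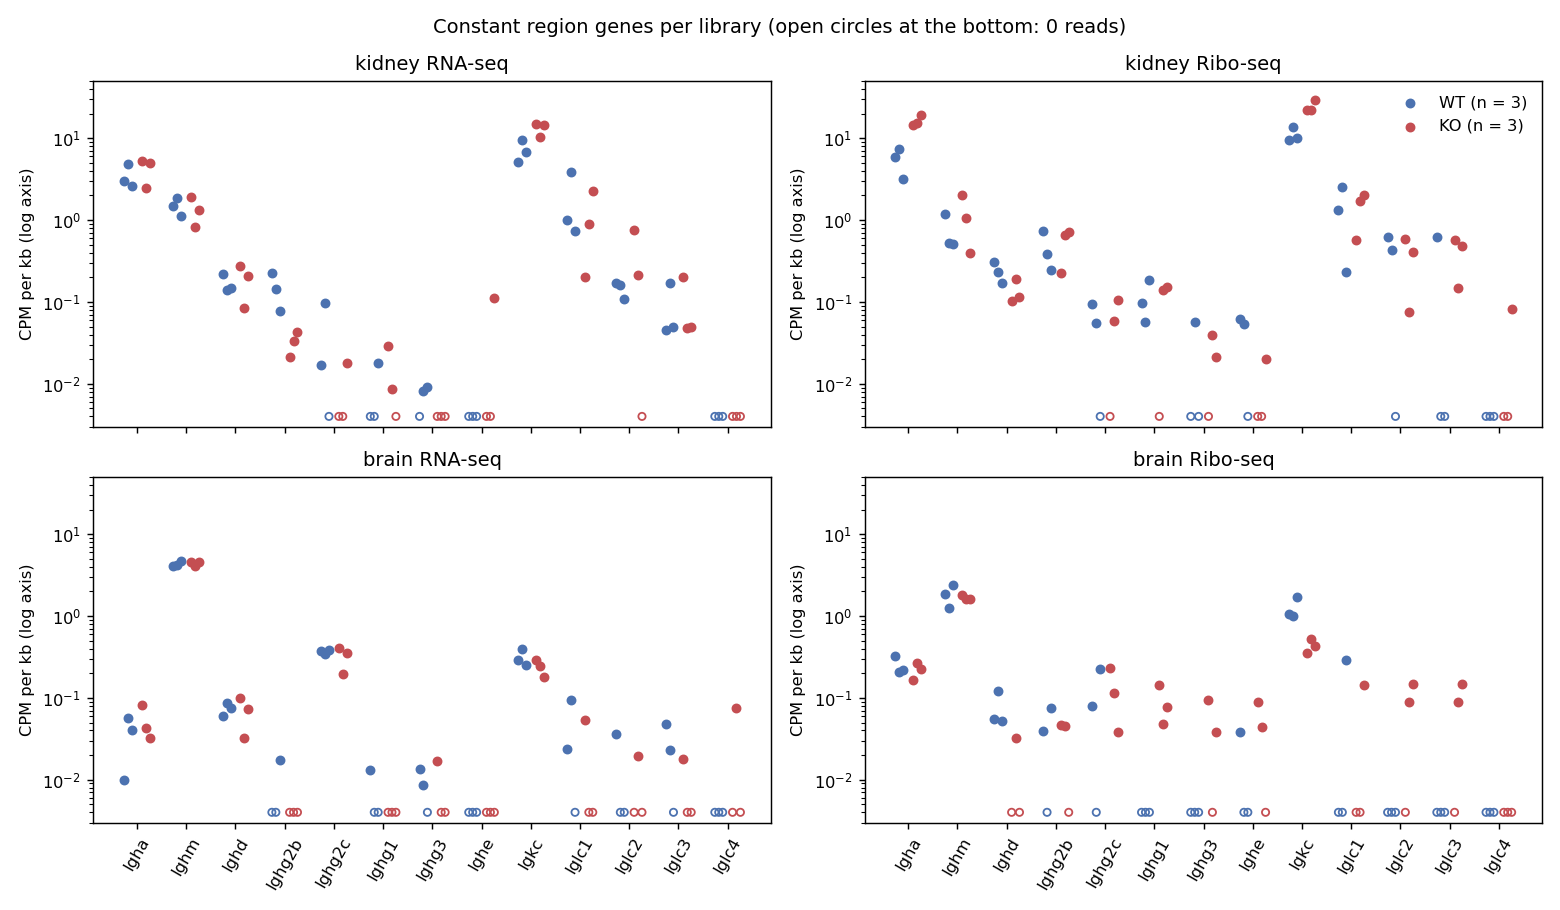
Level of the 13 constant genes in CPM per kilobase on a log axis, in kidney and brain RNA-seq and Ribo-seq; each point is a library, WT in blue and KO in red, and open circles mark libraries with 0 reads. Igkc and Igha lead in kidney, with Igkc at 5.15 to 14.9 CPM per kb of RNA, and Ighm leads in brain, at 4.04 to 4.63 CPM per kb of RNA.

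The remaining constant genes of the kidney were low. Iglc1 (chr16:19061618-19062071), a lambda constant exon, varied widely between libraries of a genotype, at 0.999, 3.87 and 0.734 CPM per kb of RNA in WT and 0.200, 0.899 and 2.29 in KO (edgeR log2 fold change -0.56 ± 0.93, adjusted p = 0.740). Its footprints varied with them, at 11, 12 and 1 reads in WT and 2, 23 and 25 in KO. Iglc2 had 5, 5 and 3 RNA reads in WT and 25, 6 and 0 in KO. Iglc3 had at most 5 RNA reads in any kidney library and Iglc4 had 1 footprint in a single KO kidney library. Iglc1 and Iglc3 overlap the antisense gene 2010309G21Rik and Igkc lies within an intron of Gm30211, and whether the counting used strand is not given in the sources used here, so reads of these partners could not be separated.

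Of the IgG genes, Ighg2b (chr12:113302965-113307933) was the one with a measurable level in kidney, with 28, 19 and 9 RNA reads in WT and 3, 4 and 5 in KO. The WT libraries were the higher ones at 0.0780 to 0.225 CPM per kb against 0.0212 to 0.0431 in KO. Its footprints overlapped, at 0.732, 0.388 and 0.243 CPM per kb in WT and 0.224, 0.660 and 0.711 in KO. Ighg1 had 3, 1 and 3 footprints in WT kidneys and 0, 7 and 7 in KO kidneys, Ighg2c at most 6 RNA reads in a kidney library, and Ighg3 at most 2 kidney footprints. Ighe, the IgE gene, had 7 RNA reads in KO replicate 3 and none in the other kidney RNA-seq libraries. Ighd, which is transcribed together with Ighm in naive B cells, stood at 0.217, 0.140 and 0.148 CPM per kb of RNA in WT and 0.271, 0.0832 and 0.208 in KO (edgeR log2 fold change 0.30 ± 0.59, adjusted p = 0.780).

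Isotype shares were computed by dividing the reads of each heavy chain constant gene by its length and by the sum over the 8 genes. IgA made up 60.7%, 68.0% and 65.2% of heavy chain constant RNA in WT kidneys and 69.9%, 71.9% and 74.8% in KO kidneys (64.7 ± 3.70% and 72.2 ± 2.46%, SD, n = 3 each). IgM made up 30.1%, 26.5% and 28.4% in WT and 25.8%, 24.4% and 19.5% in KO. IgG, all subclasses together, made up 4.87%, 3.50% and 2.65% in WT and 0.673%, 1.23% and 0.909% in KO. The IgA share was thus higher and the IgM and IgG shares were lower in every KO library than in every WT library. Without division by length the mean IgA share was 53.2% in WT and 62.4% in KO. Among footprints, IgA took 70.5%, 84.3% and 74.2% in WT and 86.1%, 87.7% and 92.6% in KO, and IgG took 11.0%, 6.42% and 9.94% in WT and 1.31%, 5.14% and 4.80% in KO. The footprint share of IgM overlapped between the genotypes, with 5.98% to 14.1% for WT and 1.90% to 11.9% for KO. These shares rest on few reads for IgG (at most 28 Ighg2b RNA reads in a library) and sum to a whole, so a higher share of IgA lowers the others.

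Heavy chain genes end either in a secretory tail or, by splicing to further exons, in a membrane anchor, and the annotation lists a transcript for each form. Most reads fall in exons that both forms share and were counted for both, so the difference between the counts of the forms is the number of reads private to the membrane form minus the number private to the secretory form. For Igha, the secretory form (Igha-201) has 59 coding bases of its own and the membrane form (Igha-202) 194. In kidney Ribo-seq the membrane form nevertheless had fewer Igha reads, by -17, -15 and -1 in WT and -18, -54 and -78 in KO. In kidney RNA-seq the difference was -5, -22 and -1 in WT and -11, -4 and -14 in KO. The secretory form of Igha therefore carried more private reads in all 12 libraries.

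Ighm went the other way in RNA. Its membrane form (Ighm-202) has 393 bases of its own, 122 of them coding, against 188 and 59 for Ighm-201. The membrane form had 43, 39 and 24 more reads in WT kidney RNA-seq and 35, 29 and 65 more in KO. In brain RNA-seq the excess was 22, 33 and 36 reads in WT and 43, 35 and 57 in KO. The membrane form of Ighm thus led in all 12 RNA-seq libraries, by its read count and without correction for its longer private stretch. In kidney Ribo-seq the forms differed by at most 2 reads in any library. Ighd also had more membrane than secretory reads, by 19, 9 and 7 in WT kidney RNA-seq and 26, 7 and 15 in KO. Its membrane form has 1098 bases of its own against 94 for the secretory form. These counts are not corrected for that length, so no preference for a form is read from them.

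Among light chains, kappa took most of the constant RNA, with Igkc at 80.9%, 69.6% and 88.4% of light chain constant reads per kb in WT kidneys and 92.9%, 90.0% and 86.0% in KO kidneys. The genotypes overlapped, as did the footprint shares of 78.5%, 82.1% and 97.8% in WT and 92.8%, 92.0% and 90.7% in KO. The ratio of light to heavy chain constant RNA per kb was 1.28, 1.94 and 1.94 in WT and 2.15, 3.37 and 2.48 in KO, so each KO library was above each WT library. In footprints the ratio was 1.42, 1.92 and 2.39 in WT and 1.41, 1.39 and 1.55 in KO, which overlapped.

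The V segments were the place where RNA and footprints parted. In kidney Ribo-seq they received 363, 325 and 165 reads in WT and 310, 1330 and 1328 in KO, spread over 121, 117 and 88 V genes in WT and 118, 191 and 177 in KO. In kidney RNA-seq they received 97, 120 and 91 reads in WT and 97, 11 and 0 in KO, on 31, 26 and 37 V genes in WT and 39, 4 and 0 in KO. KO replicate 1 resembled the WT libraries in RNA reads, whereas KO replicates 2 and 3 held almost none. In Ribo-seq, KO replicates 2 and 3 were the deepest libraries, and these read and gene numbers are not scaled for depth. For the library with 0 V reads, the floor of 3 counts is 0.0663 CPM. Over all 6 libraries of each assay, 82 of the 218 V genes had reads in both kidney assays, 130 in Ribo-seq alone, 0 in RNA-seq alone and 6 in neither.

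The scarcity of V reads in those libraries covered all loci. Kappa V segments had 59, 57 and 61 RNA reads in WT kidneys and 69, 11 and 0 in KO kidneys. Heavy chain V segments had 22, 27 and 16 in WT and 19, 0 and 0 in KO, and lambda V segments had 16, 36 and 14 in WT and 9, 0 and 0 in KO. Constant segments were not scarce there, with 257 and 346 Igkc reads in KO replicates 2 and 3 against 133 to 438 in the other libraries, and 126 and 251 Igha reads against 128 to 318. T cell receptor V segments, the most similar gene family outside the immunoglobulins, had 4, 5 and 11 RNA reads in WT kidneys and 13, 0 and 3 in KO kidneys. The higher share of mitochondrial ribosomal RNA in the same libraries is given above, and its part in the missing V reads was not tested.

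The ratio of kappa V reads per kb to Igkc reads per kb puts the contrast on 1 scale. In kidney RNA-seq it was 0.630, 0.314 and 0.540 in WT and 0.224, 0.0620 and 0 in KO (0.495 ± 0.163 and 0.0954 ± 0.116, SD, n = 3 each), with all KO values below all WT values. In kidney Ribo-seq it was 2.18, 2.5 and 1.77 in WT and 2.41, 2.34 and 1.80 in KO (2.15 ± 0.366 and 2.18 ± 0.333), which overlapped. The heavy chain ratio, of V reads to the reads of the 8 constant genes, was 0.245, 0.201 and 0.243 in WT RNA and 0.123, 0 and 0 in KO RNA, against 1.96, 2.75 and 3.77 in WT footprints and 1.47, 2.01 and 1.91 in KO footprints. Both loci therefore had a lower V to C ratio in RNA than in footprints in every kidney library. Reads that map to several places were allowed, and of the 28-base stretches of a V segment a median of 50.5% occur in no other gene, against 100% for Igkc, Igha and Ighm. How much of the V signal came from footprints counted for several V segments was not tested.

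**Figure D3:**
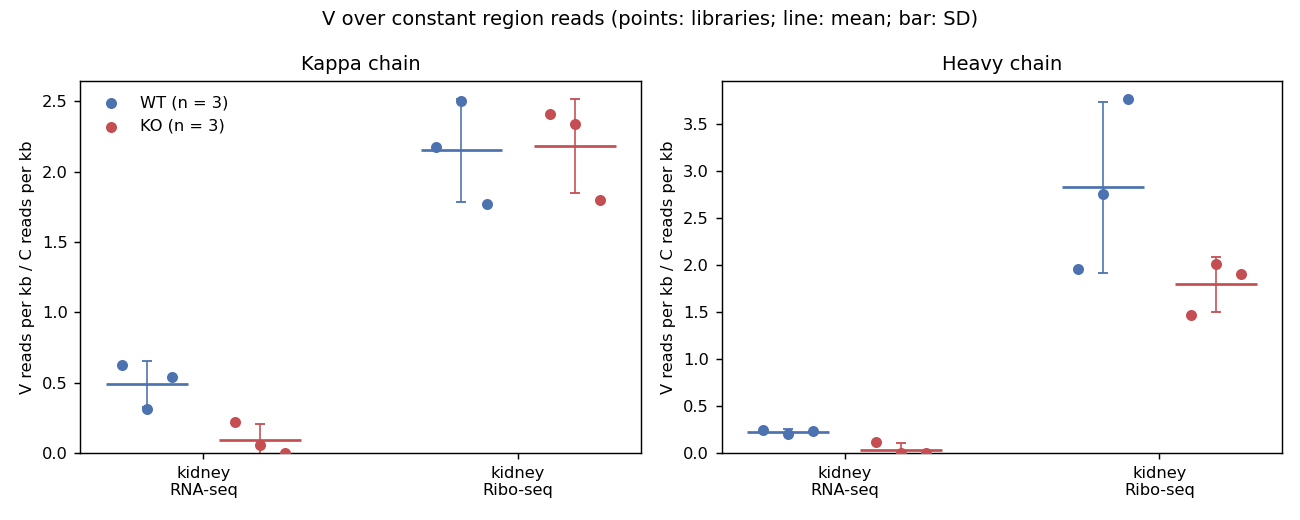
Ratio of V reads per kilobase to C reads per kilobase for the kappa and heavy chain loci in kidney RNA-seq and Ribo-seq; points are libraries, WT in blue and KO in red, with the mean and SD of 3 libraries. The kappa ratio lies at 0 to 0.630 in RNA-seq and at 1.77 to 2.5 in Ribo-seq, and the genotypes separate in RNA-seq only.

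Within the V repertoire of KO kidneys a pair of related kappa segments stood out among footprints, Igkv1-110 (chr6:68270485-68271267, plus strand) and Igkv1-117 (chr6:68121046-68121827, plus strand). Their last 180 coding bases, shown because they show how alike the segments are, differ at 5 positions (97.2% identical). The differing bases are in capitals, the sequences are from GRCm38, plus strand, and they cover chr6:68271088-68271267 and chr6:68121648-68121827.
Igkv1-110: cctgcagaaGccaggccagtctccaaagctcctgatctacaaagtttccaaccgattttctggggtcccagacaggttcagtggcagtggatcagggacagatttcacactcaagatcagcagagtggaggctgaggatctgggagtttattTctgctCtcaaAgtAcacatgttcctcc
Igkv1-117: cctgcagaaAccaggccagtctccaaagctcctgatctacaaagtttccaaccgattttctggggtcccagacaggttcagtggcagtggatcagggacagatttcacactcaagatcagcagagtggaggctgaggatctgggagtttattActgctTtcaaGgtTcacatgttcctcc
Of the 374 stretches of 28 bases in Igkv1-110, 126 occur in no other gene and 243 are shared with Igkv1-117. Of the 377 stretches in Igkv1-117, 134 occur in no other gene, so a large part of the reads of these segments cannot be assigned to either.

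Igkv1-110 had 0, 2 and 1 footprints in WT kidneys and 13, 99 and 75 in KO kidneys, a mean of 0.0694 against 1.80 CPM. Igkv1-117 had 2, 4 and 2 in WT and 7, 108 and 76 in KO, a mean of 0.165 against 1.70 CPM. The KO libraries were above the WT libraries for both. Their fitted log2 fold changes, 5.06 ± 0.53 and 3.72 ± 0.52, rest on 3 and 8 WT reads and depend on the prior count of the fit, and the call of Igkv1-117 was lost without KO replicate 2 or 3. In RNA-seq, Igkv1-110 had 0, 8 and 0 reads in WT and 17, 0 and 0 in KO, and Igkv1-117 had 2, 1 and 2 in WT and 1, 3 and 0 in KO. The segments that were high in the footprints of KO replicates 2 and 3 thus had at most 3 reads in the RNA-seq libraries of those numbers. These libraries are not known to come from the same animals and held 11 and 0 V reads in all, so nothing is read from this. Disome footprints showed 0, 1 and 0 reads on Igkv1-110 in WT and 3, 3 and 5 in KO, and 0, 2 and 0 on Igkv1-117 in WT and 6, 4 and 9 in KO. The disome counts were also higher in each KO library than in each WT library, on a handful of reads.

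Each WT kidney had a leader of its own among kappa V footprints. Igkv6-17 led WT replicate 1 with 20 of 186 kappa V reads (10.8%, 95% Wilson interval 7.07% to 16.0%, which covers counting error only). Igkv10-94 led WT replicate 2 with 18 of 178 (10.1%) and Igkv6-23 led WT replicate 3 with 7 of 86 (8.14%). Igkv1-110 led KO replicate 1 with 13 of 209 (6.22%, 3.67% to 10.3%). Igkv1-117 led both other KO libraries, with 108 of 788 (13.7%, 11.5% to 16.3%) in replicate 2 and 76 of 728 (10.4%, 8.42% to 12.9%) in replicate 3, closely followed by Igkv1-110 with 99 and 75 reads. The leading share thus ranged from 6.22% to 13.7% of the kappa V reads of a library.

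The heavy chain leaders also differed between libraries. Ighv1-26 (chr12:114788372-114788805) led WT replicate 1 with 8 of 149 heavy V reads (5.37%) and WT replicate 3 with 7 of 76, Ighv1-18 and Ighv3-6 were tied in WT replicate 2 with 6 of 122 each, and Ighv1-84 led KO replicate 1 with 6 of 95. Ighv1-81 (chr12:115920279-115920712) led KO replicate 2 with 63 of 514 reads (12.3%, 9.70% to 15.4%) and KO replicate 3 with 46 of 536 (8.58%, 6.50% to 11.3%), where Ighv1-26 had 44. It had 4, 0 and 6 footprints in WT and 0 in KO replicate 1, so its genotypes overlapped. Its RNA was counted once, in WT replicate 3. Iglv1 (chr16:19085017-19085500, minus strand), 1 of the 3 lambda V genes, led the lambda V footprints of all 6 kidney libraries with 60.7% to 72.0% of them, at 19, 18 and 2 reads in WT and 4, 17 and 45 in KO.

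RNA-seq named other leaders. The first kappa segments were Igkv14-111 in WT replicate 1 (10 of 59 reads), Igkv10-94 in WT replicate 2 (11 of 57), Igkv4-58 in WT replicate 3 (9 of 61), Igkv1-110 in KO replicate 1 (17 of 69, 24.6%) and Igkv9-124 in KO replicate 2 (5 of 11). Igkv10-94 in WT replicate 2 and Igkv1-110 in KO replicate 1 were therefore first in both assays under the same replicate number. Among heavy chain V segments, Ighv9-3 and Ighv14-3 were tied in WT replicate 1 with 5 RNA reads each and Ighv10-1 led WT replicate 2 with 9. Lambda V RNA was almost entirely Iglv1, with 13 of 16, 36 of 36 and 11 of 14 reads in WT and 9 of 9 in KO replicate 1.

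Further V segments with high footprint means had most of their reads in KO replicates 2 and 3, the deepest libraries. By CPM, Igkv6-23 and Ighv1-26 in KO replicate 2 did not lie above every WT library. Igkv6-15 had 15, 5 and 4 footprints in WT kidneys and 1, 41 and 32 in KO, and Igkv6-23 had 14, 5 and 7 in WT and 2, 22 and 43 in KO. Igkv1-122 had 0, 2 and 0 in WT and 0, 32 and 34 in KO, and Ighv1-26 had 8, 3 and 7 in WT and 1, 18 and 44 in KO. These 4 genes overlapped between genotypes, and KO replicate 1 had the lowest CPM for Igkv6-15, Igkv6-23 and Ighv1-26. Igkv10-94 (chr6:68704508-68704978, minus strand) and Igkv10-96, in contrast, had their highest CPM in WT replicate 2, with 18 and 15 reads there. Igkv12-44, named after its values were seen, had 5 footprints over the 3 WT and 43 over the 3 KO libraries without overlap.

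**Figure D4:**
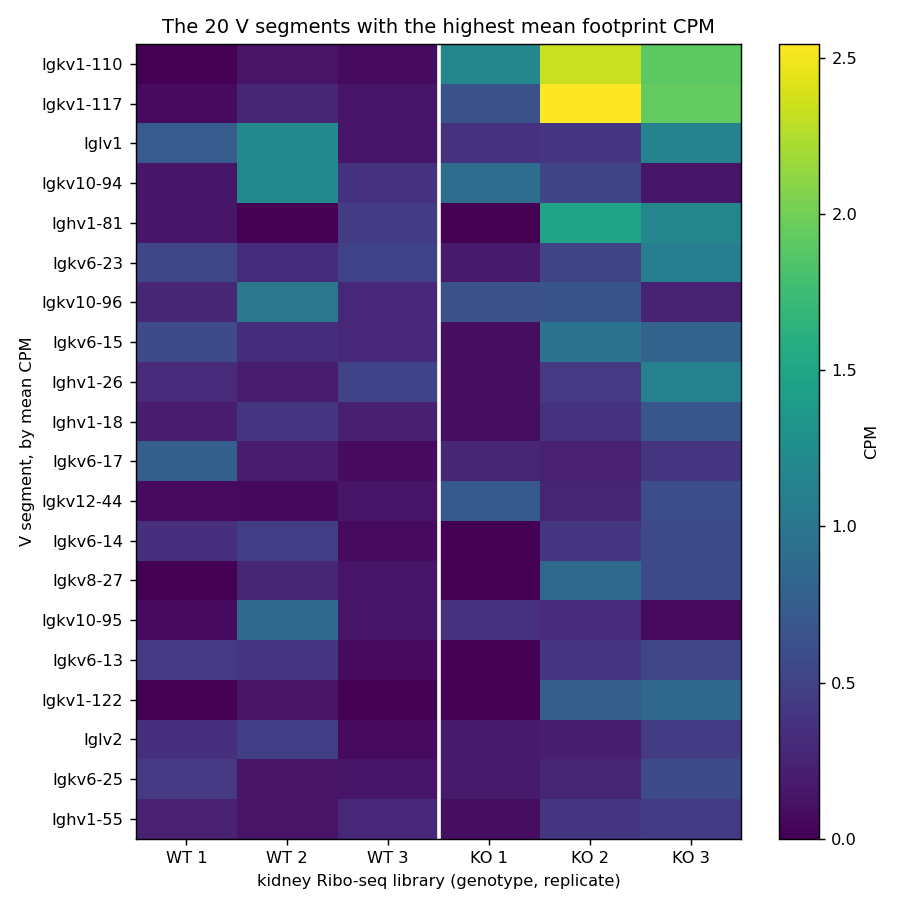
Footprint level (CPM, colour scale 0 to 2.5) of the 20 V segments with the highest mean over the 6 kidney Ribo-seq libraries; rows are segments and columns are libraries. Igkv1-110 and Igkv1-117 are bright in KO replicates 2 and 3, with 75 to 108 reads, and dark in the 3 WT libraries, with 0 to 4 reads.

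Over the whole repertoire, 155 of the 212 V genes with a kidney footprint had a higher mean CPM in KO than in WT and 57 a lower one. For 29 of them all KO libraries lay above all WT libraries, and for 3 all lay below. This is the contrast on which the family was selected. Of all transcripts with enough reads to be tested, 9.87% and 19.5% did so, but the 212 V genes passed no such filter. These shares are therefore not like for like, and none is given for the means. V genes also share reads, so nothing is read from these counts. There were 53 V genes with 20 or more footprints over the 6 libraries. By family, Ighv1, the largest heavy chain family, took 1037 reads, or 27.1% of V footprints with 24.3% of V genes. Igkv1 took 572 reads, 15.0% of the footprints with 4.59% of the genes, and was split as 5, 17 and 4 reads in WT and 38, 268 and 240 in KO. Igkv6 took 439 reads, 11.5% with 4.13% of the genes, at 82, 32 and 16 reads in WT and 9, 127 and 173 in KO. Igkv4 took 223 reads, 5.84% with 11.9% of the genes. Over the pooled reads, Igkv1 and Igkv6 were thus read more, and Igkv4 less, than their numbers of genes, without correction for reads shared within a family. KO replicates 2 and 3 weigh most in this pool, with 1330 and 1328 V reads. The pooled shares do not hold for each library. Igkv1 had 5, 17 and 4 of 363, 325 and 165 V reads in WT, and in KO replicate 1 Igkv6 had 9 and Igkv4 45 of 310.

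The V make-up of pairs of libraries was compared as the percent of V reads that they have in common, over all 218 V genes. Pearson's r was taken over the 119 V genes with 10 or more kidney reads. KO RNA-seq replicates 2 and 3 were left out for lack of V reads. KO Ribo-seq replicates 2 and 3 had 71.7% in common (Pearson's r 0.62 across genes, a description, since V genes share reads and are not independent). They held 1330 and 1328 V reads, against 165 to 363 in the other Ribo-seq libraries. The percent in common depends on the number of reads, and the part of depth in this difference was not tested. All other pairs of Ribo-seq libraries had 35.2% to 55.3% in common, pairs of an RNA-seq and a Ribo-seq library 19.9% to 32.8%, and pairs of RNA-seq libraries 21.6% to 32.3%. The most alike pair by r between the assays was WT replicate 2 with WT replicate 2 (0.41). WT replicate 3 and KO replicate 1 of Ribo-seq were also most like the RNA-seq library with their own number (0.26 and 0.27), whereas WT replicate 1 was most like WT RNA-seq replicate 2 (0.22). By CPM, where each library weighs alike, the V footprints of KO replicate 1 (28.1) stood near those of KO replicates 2 and 3 (31.3 and 33.7).

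Joining segments, of 36 to 54 bases, are short for an RNA-seq read but not for a footprint. The kappa locus has 5, of which a functional one is joined to Igkc at a splice donor, and they are printed with the next 6 bases because only Igkj3, which is regarded as non-functional, was nearly unread. Sequences are from GRCm38, chromosome 6, plus strand, and the capitals mark the first 2 bases after the coding end, where a splice donor has GT. The coding bases lie at chr6:70722562-70722599 for Igkj1, chr6:70722916-70722954 for Igkj2, chr6:70723223-70723260 for Igkj3, chr6:70723548-70723585 for Igkj4 and chr6:70723886-70723923 for Igkj5.
Igkj1: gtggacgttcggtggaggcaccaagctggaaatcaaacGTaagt
Igkj2: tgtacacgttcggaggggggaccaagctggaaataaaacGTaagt
Igkj3: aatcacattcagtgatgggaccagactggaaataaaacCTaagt
Igkj4: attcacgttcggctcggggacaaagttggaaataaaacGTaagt
Igkj5: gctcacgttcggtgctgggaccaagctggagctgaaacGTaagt
In the 18 kidney libraries Igkj1 had 49 reads, Igkj2 55, Igkj4 30 and Igkj5 42. Igkj3, the segment with CT in place of GT, had 0 in kidney and 1 read in a KO brain RNA-seq library. It is named here after its values were seen.

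The kappa J footprints followed the kidney libraries. Igkj1 had 0, 3 and 0 footprints in WT and 3, 10 and 10 in KO, and Igkj2 had 2, 0 and 2 in WT and 1, 15 and 10 in KO. In RNA-seq, Igkj1 had 0, 13 and 3 reads in WT and 6, 0 and 0 in KO, and Igkj2 had 4, 11 and 4 in WT and 3, 0 and 3 in KO. At the heavy chain locus, Ighj3 had 1, 2 and 1 footprints in WT and 3, 18 and 18 in KO, and Ighj2 had 6, 4 and 1 in WT and 6, 14 and 15 in KO. Ighj3 RNA was read 5, 1 and 0 times in WT and 0 times in KO. Of the lambda J segments, Iglj1 had 4, 2 and 3 footprints in WT and 1, 2 and 6 in KO, Iglj2, which overlaps Iglc2, had 1, 1 and 0 in WT and none in KO, and the other 3 had no read. D segments, at 10 to 29 bases, were nearly unread: 3 of the 19 had a read, a single one each, all in WT brain Ribo-seq replicate 1.

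V gene promoters carry the octamer, the binding motif of Oct factors that B cells use to transcribe V segments. The motif was searched as ATGCAAAT or, on the other strand, ATTTGCAT in the 250 bases before and 50 bases after each annotated start. It was found for 166 of 218 V genes (76.1%), against 368 of 21938 protein-coding genes (1.68%). The share was 79.6% of heavy chain, 71.6% of kappa and 3 of 3 lambda V genes. V genes with 20 or more kidney footprints held it in 36 of 53 cases (67.9%) and the others in 130 of 165 (78.8%), and the median kidney footprint count was 10 with the motif and 8 without it. Igkv1-110, Igkv1-117 and Ighv1-81 had no match in this window. The matches of Igkv10-94 and Iglv1, 2 leading segments, are shown with the octamer in capitals, 5′ to 3′ along the gene (minus strand, GRCm38, chr6:68705034-68705101 and chr16:19085528-19085595), and lie 93 and 65 bases before the start.
Igkv10-94: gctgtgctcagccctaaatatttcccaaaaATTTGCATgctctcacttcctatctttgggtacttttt
Iglv1: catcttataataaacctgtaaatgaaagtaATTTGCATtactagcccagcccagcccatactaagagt

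In the brain the family had another composition. IgM made up 89.5%, 89.4% and 89.9% of heavy chain constant RNA per kb in WT brains and 88.3%, 93.7% and 90.9% in KO brains, and IgA made up 0.219% to 1.22% in WT and 0.646% to 1.57% in KO. Ighm RNA stood at 4.05, 4.21 and 4.63 CPM per kb in WT brains and 4.55, 4.04 and 4.55 in KO brains (edgeR log2 fold change 0.10 ± 0.12, adjusted p = 0.898). It was read 582 to 955 times per library and overlapped between genotypes. Ighg2c (chr12:113285325-113288932) was second among heavy chains, at 0.376, 0.347 and 0.387 CPM per kb in WT and 0.406, 0.194 and 0.351 in KO (edgeR log2 fold change -0.15 ± 0.32, adjusted p = 0.917). Igkc stood at 0.286, 0.396 and 0.252 CPM per kb in WT and 0.289, 0.244 and 0.178 in KO (edgeR log2 fold change -0.32 ± 0.40, adjusted p = 0.898).

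Brain Ighm RNA came with almost no V segment RNA. V segments received 3, 5 and 5 RNA reads in WT brains and 12, 9 and 1 in KO brains, and heavy chain V segments received 0 in all 6 libraries. Libraries with 582 to 955 Ighm reads thus had no heavy chain V read, which allows a heavy V level of up to 0.0242 to 0.0355 CPM (3 counts). Of the 14 listed B cell genes, 1 was counted above 1 CPM in brain RNA-seq, as 1 was in kidney RNA-seq. In brain RNA-seq the list summed to 7.15 ± 1.13 CPM in WT and 7.45 ± 0.364 CPM in KO (SD, n = 3 each). Ms4a1, Cd79a and Cd79b, from that list, were all below 1 CPM in every library. Whether B cells were present was not tested. The V genes with the most brain RNA reads were Igkv19-93, with 0, 0 and 2 reads in WT and 2, 2 and 0 in KO, Igkv6-20, with 0, 2 and 0 in WT and 2, 0 and 0 in KO, and Igkv4-74, with 0 in WT and 1, 2 and 0 in KO. Ighj1, the heavy chain J segment next to the D segments and named after its values were seen, had 3, 7 and 7 RNA reads in WT brains and 3, 0 and 1 in KO brains.

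No immunoglobulin transcript was called between genotypes in brain. In RNA-seq 0 of 6 tested were called by edgeR, where 0.0134% of all transcripts were, none had an unadjusted p under 0.05, and DESeq2 called 0 too. None of the 6 had groups that did not overlap in either direction, where 4.13% of all transcripts lay above and 5.69% below in KO. In Ribo-seq 0 of 3 were called by edgeR, where 0.0345% were, with 0 at an unadjusted p under 0.05 and no adjusted p from DESeq2. Ighm footprints stood at 1.86, 1.25 and 2.36 CPM per kb in WT and 1.81, 1.62 and 1.61 in KO (edgeR log2 fold change -0.16 ± 0.21, adjusted p = 0.787). Igkc footprints, too few to be tested, were 7, 3 and 12 reads in WT and 2, 6 and 3 in KO, or 1.05, 0.987 and 1.71 CPM per kb against 0.351, 0.523 and 0.431, with KO below WT. In the same libraries the 5 red cell genes (1043 ± 651 CPM in WT, 383 ± 52.0 in KO), the plasma cell list (46.4 ± 2.05 and 38.6 ± 0.232) and the T cell list (2.53 ± 0.642 and 1.68 ± 0.244) also lay below WT in KO, and their part in the Igkc value was not tested. Heavy chain V segments had 35, 23 and 23 brain footprints in WT and 31, 36 and 9 in KO. The leading genes were Ighv7-1 (chr12:113896408-113896946), with 10, 7 and 2 in WT and 9, 6 and 3 in KO and no brain RNA read (edgeR log2 fold change -0.59 ± 0.69, adjusted p = 0.761), Ighv7-3 and Ighv7-2.

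Between the tissues of WT mice the constant genes differed strongly. In RNA-seq all 12 immunoglobulin transcripts tested were called by edgeR, 8 higher and 4 lower in kidney, where 64.1% of all transcripts tested were called, so a call is common between these tissues. Igha was higher in kidney by a log2 fold change of 6.80 ± 0.53 (edgeR adjusted p = 1.54e-06), from 1, 6 and 4 reads in brain to 161, 273 and 128 in kidney. Igkc was higher by 4.77 ± 0.39 (edgeR adjusted p = 2.34e-06), Iglc1 by 5.70 ± 0.99 (0.000553), Iglv1 by 6.49 ± 0.94 (0.000158) and Ighg2b-202 by 4.84 ± 0.91 (0.000934). Iglv1 had 1 brain read, so its fitted difference depends on the prior count. Ighm-202 was lower in kidney (log2 fold change -1.25 ± 0.25, edgeR adjusted p = 0.00125), as were Ighm-201 (-1.66 ± 0.27, adjusted p = 0.000315) and Ighg2c-201 (-2.92 ± 0.76, adjusted p = 0.00676). Ighd-202 was higher in kidney by 1.42 ± 0.46 (edgeR adjusted p = 0.0192), and with the replicate number as a block this call was lost (1.41, adjusted p = 0.0569). The median of all transcripts lay at -0.20 in this fit and at -0.45 when scaled by library totals alone.

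Footprints gave the same directions for the 3 genes that could be tested. Of the 5 transcripts tested in Ribo-seq 5 were called, 3 higher and 2 lower in kidney, where 70.9% of all transcripts were called. Igha-201 was higher in kidney by 4.46 ± 0.38 (edgeR adjusted p = 1.09e-07) and Igkc by 3.13 ± 0.31 (adjusted p = 5.88e-07), while Ighm-202 was lower (-1.17 ± 0.33, adjusted p = 0.00564). Leaving out WT replicate 1 of both tissues, in which pancreatic enzyme footprints were high, kept 5 of 5 calls.

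Translational efficiency (TE), the ratio of footprints to RNA, was tested in kidney as the interaction of assay and genotype. It contains the footprint contrast on which the family was selected, so it is no independent measure, and 0 of the 41 immunoglobulin transcripts tested were called, as were 0% of all 89685 transcripts. At an unadjusted p under 0.05 there were 9 of the 41, and DESeq2 called 0 of the 5 to which it gave an adjusted p. The median log2 difference was 1.92 over the 41, with 36 higher and 5 lower in KO, against 0.07 over all transcripts. Igkc, with ample reads in both assays, differed by 0.20 ± 0.37 (edgeR adjusted p = 0.825) and Igha-201 by 1.21 ± 0.49 (adjusted p = 0.216). Larger values belonged to segments with few or no RNA reads in KO replicates 2 and 3, such as Igkv1-117 (3.71 ± 1.32, adjusted p = 0.176) and Igkv1-110 (3.89 ± 2.09, adjusted p = 0.328). Ighg2b-202 (2.35 ± 0.81, adjusted p = 0.170) had few RNA reads in every KO library, at 3, 4 and 5. Ighm-202 differed by 0.54 ± 0.75 (adjusted p = 0.733). In disome-seq no immunoglobulin transcript had enough reads to be tested, where 0.201% of all transcripts tested were called. Igha disomes stood at 0.643, 0.643 and 0.776 CPM per kb in WT and 1.25, 0.997 and 0.817 in KO, on 1 to 3 reads per library.

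Of the plasma cell program other than the immunoglobulins, 1 gene passed a test between genotypes. Of 14 listed genes, 11 were tested in kidney RNA-seq and 0 were called, where 0.00992% of all transcripts were. In kidney Ribo-seq 9 were tested and 1, Jchain, was called higher. There 7.76% of all transcripts were called in either direction, so nothing is read from this count. Jchain, the joining chain of polymeric IgA and IgM, stood at 1.59, 1.64 and 1.76 CPM of RNA in WT kidneys and 3.83, 2.49 and 3.05 in KO kidneys, without overlap and without a call by edgeR (DESeq2 log2 fold change 1.07, adjusted p = 0.0327). Its footprints stood at 1.24, 1.55 and 0.516 CPM in WT and 1.90, 2.38 and 2.11 in KO (edgeR log2 fold change 1.01, adjusted p = 0.0394), a call that most alternatives lost. Tnfrsf17, the plasma cell survival receptor BCMA, was at 0 in the WT kidney RNA-seq libraries and at 0.0363, 0.0859 and 0.133 CPM in KO, too low to be tested. Slamf7, a surface receptor of plasma and other immune cells, had footprints of 0.502, 0.538 and 0.295 CPM in WT and 0.906, 0.777 and 1.14 in KO, without overlap and without a call.

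The secretory and regulatory genes of that list overlapped or were lower in KO kidney RNA. Mzb1, an antibody assembly factor, stood at 0.536, 0.800 and 0.333 CPM in WT and 0.581, 0.623 and 0.398 in KO, and Derl3, of endoplasmic reticulum degradation, at 0.433, 0.312 and 0.244 in WT and 0.254, 0.623 and 0.354 in KO. The transcription factors Prdm1 (0.533 to 0.887 CPM in WT, 0.322 to 0.862 in KO), Irf4 (0.0825 to 0.254 and 0.0644 to 0.199) and the B cell coactivator Pou2af1 (0.0444 to 0.176 and 0.0221 to 0.145) overlapped. So did the surface proteoglycan Sdc1 (3.90 to 5.05 and 2.76 to 4.83), Eaf2 (4.60 to 6.02 and 5.88 to 6.94) and the chaperone Fkbp11 (0.804 to 1.64 and 1.36 to 1.91). Tent5c, which lengthens poly(A) tails of immunoglobulin and other transcripts, lay lower in KO without overlap (3.48 to 4.74 and 2.52 to 3.41), as did the folding enzyme Txndc5 (40.1 to 41.5 and 29.5 to 33.4), and neither was called. Txndc5 and Xbp1 (33.7 to 56.8 and 30.2 to 34.9), which many secretory cells express, set the sum of the list at 104 ± 12.6 CPM in WT and 83.1 ± 3.34 CPM in KO. The list had 0 calls of 10 tested in brain RNA-seq, 0 of 6 in brain Ribo-seq, 0 of 2 in disome-seq and 0 of 12 in TE. Between WT tissues 10 of 11 were higher in kidney RNA and 4 of 6 in kidney footprints. Of all transcripts, 64.1% and 70.9% were called there in either direction.

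Markers of other cells were measured beside the family. Over all transcripts tested, 0.00992% were called in kidney RNA-seq and 7.76% in kidney Ribo-seq, in either direction. B cell genes in kidney RNA-seq had 3 of 14 tested and 0 called, and in Ribo-seq 4 tested and 1 called lower, Cd22, an inhibitory receptor (0.695, 1.01 and 0.737 CPM in WT and 0.0906, 0.141 and 0.203 in KO, edgeR log2 fold change -2.22, adjusted p = 0.00862). Ebf1, which many cells besides B cells express, and Pax5 were the highest of that list by CPM. T cell genes, led by Cd4 and Trac, had 7 of 10 tested in kidney RNA-seq with 0 called, and 0 tested in Ribo-seq. T cell receptor constant segments stood at 1.69, 2.21 and 0.645 CPM of kidney RNA in WT and 3.72, 3.67 and 3.27 in KO, so they too were above WT in each KO library, while T cell receptor V footprints overlapped (1.39 to 2.02 CPM in WT, 1.44 to 1.81 in KO). Of 8 myeloid genes, led by Csf1r and C1qb, 0 were called in kidney RNA-seq and 2 were higher in Ribo-seq, Csf1r (0.42, edgeR adjusted p = 0.0344) and the pan-leukocyte gene Ptprc (0.80, adjusted p = 0.0298). Red cell genes, led by Hbb-bs and Hba-a1, had 0 of 5 called in either kidney assay, and brain marker genes, among them Snap25, had 0 of 4 and 0 of 2. Pancreas genes had 0 of 3 called in kidney RNA-seq and 5 of 5 lower in Ribo-seq (Cela1, Cpa1, Ctrb1, Prss2 and Try4), where WT replicate 1 was high. Kidney genes, led by Kap and Slc34a1, had 0 of 8 and 1 of 8 (Lrp2 higher by 0.62, adjusted p = 0.0456). The part of these cell types in the immunoglobulin values was not tested.

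Among genes that handle antibody or rearrange its genes, 3 of 18 tested were called in kidney Ribo-seq, where 7.76% of all transcripts were. Of 10 genes for antibody receptors and transport, led by B2m and Fcgrt, the subunits of the neonatal Fc receptor, 0 were called in kidney RNA-seq and 1 was higher in Ribo-seq. This was Pigr, the receptor that carries polymeric IgA across epithelium, at 39.1, 27.3 and 28.1 CPM of footprints in WT and 39.0, 55.3 and 45.9 in KO (edgeR log2 fold change 0.64, adjusted p = 0.0180), with overlap between the highest WT and the lowest KO library. Its RNA stood at 41.1, 31.3 and 30.4 CPM in WT and 32.2, 72.3 and 50.3 in KO. Of 12 genes of V(D)J recombination and class switching, 0 of 8 tested were called in kidney RNA-seq and 2 of 8 were higher in Ribo-seq, the end joining genes Xrcc5 (0.37, adjusted p = 0.0398) and Prkdc (0.80, adjusted p = 0.00759), which every cell uses. Rag1, the recombinase of developing lymphocytes, had no read in kidney RNA-seq. None of the 10 lists had a gene called between genotypes in brain, in disome-seq or in TE.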

How the data were processed

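Tissue RNA and RNase I footprints were sequenced by the authors, who trimmed adapters (cutadapt), removed ribosomal RNA reads, aligned to GRCm38/mm10 with STAR and counted reads per GENCODE M21 transcript with featureCounts (Subread, versions and strand setting not given in the sources used here). The deposited values are raw counts per transcript, with multimapping reads allowed and reads in shared exons counted for each transcript. Members, lists and tests were chosen with earlier results of these data known. Groups come from the sample titles, and 28 columns of the other deposited table were not assigned to a sample and not used. CPM divides by library totals. Counts were tested with edgeR 4.0.16 (R 4.3.3, limma 3.58.1) quasi-likelihood fits on the genotypes of 1 tissue and assay, or of WT kidney and brain, with TMM factors, filterByExpr, a threshold of 0.05 on Benjamini-Hochberg adjusted p over all transcripts, and SE taken as the absolute log2 fold change over the root of F. TE used 1 fit with an assay by genotype interaction. Both edgeR and DESeq2 1.42.0 were checked on simulated counts. Named were every C gene, the V genes with the highest mean CPM (5 per kidney assay, 3 per brain assay), the leading V gene of each locus and kidney library, called members, the top J and D genes, Igkv1-110, every plasma list gene and, of other lists, called genes and the 2 highest, apart from genes that are not reported here. The transcript with the highest mean stood for a gene. Alternatives were DESeq2, library totals, other filters, counts summed per gene, a replicate block and leaving out each library, and 3 chosen after seeing the data leave out both KO RNA-seq libraries 2 and 3 (kidney RNA-seq and TE) or both WT libraries 1 (tissue Ribo-seq). The main fits held no replicate term in any comparison. Same-numbered libraries all deviated together above the limit of r 0.1 only in WT kidney against WT brain RNA-seq (r 0.120 to 0.431), and there too the block was an alternative only. In the other comparisons at least 1 pair was below this limit. In disome-seq the 3 same-numbered pairs (0.0369 to 0.117) were nevertheless above all differently numbered pairs (highest 0.0295). Replicates differed beyond counting noise (lowest chi-square per degree of freedom 1.62). Sequences come from the GRCm38 reference.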

Additional observations from a re-analysis of the deposited data

Results flagged for a closer look

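Igkc footprints, the constant exon of kappa light chains, differed between genotypes in opposite directions in the tissues. The pattern was found by searching the members read in both tissues for opposite groups without overlap. Its kidney part is the contrast on which the family was selected, and the share of all transcripts with such a pattern was not computed. It is therefore a description only. In kidney Ribo-seq all 3 KO libraries were above all 3 WT libraries, with means of 7.871 and 3.543 CPM. In brain Ribo-seq all 3 KO libraries were below all 3 WT libraries, with means of 0.1391 and 0.3999 CPM, on 2 to 12 reads per library. Red cell, plasma cell and T cell list sums were also below WT in all 3 KO brain Ribo-seq libraries (means of 383, 38.6 and 1.68 CPM against 1043, 46.4 and 2.53 CPM), and their part was not tested. The difference between the tissues was not tested.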

How the results depend on the processing

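Immunoglobulin calls depended mainly on the filter for low counts. In kidney Ribo-seq, the contrast on which the family was selected and whose counts are a description, 14 transcripts were called with no filter, 3 with at least 10 counts in every library (5 tested) and 3 by DESeq2 (3 with an adjusted p), against 5. The disome count was 1 with no filter (Igkv1-117). Between WT tissues, 38 were called with no filter and 4 with at least 10 counts in RNA-seq, and 57, 2 and, with counts summed per gene, 3 in Ribo-seq. Leaving out 1 library gave 4 to 10 calls for kidney footprints, 0 to 1 for kidney RNA, 0 to 2 for TE, 10 to 12 and 5 to 7 between tissues in RNA-seq and Ribo-seq, and 0 in disome-seq and both brain comparisons. In kidney Ribo-seq the most calls, 10, came without KO replicate 1 and 9 without WT replicate 3, and without KO replicate 2 or 3 Igkv1-117 was lost. Without KO RNA-seq replicate 1 Iglv1 was called in kidney RNA-seq (-7.21, edgeR adjusted p = 0.0293), as 12466 of all transcripts then were, and Iglv1 and Igkv1-110 in TE (9.15 for Igkv1-110, adjusted p = 0.0217), with 16331 of all. With both KO RNA-seq libraries 2 and 3 left out, 0 of 17 were called in kidney RNA-seq and 0 of 101 in TE. When 1 library was left out, the log2 ratio of summed CPM lay between 0.89 and 1.32 for kidney footprints, -0.14 and 0.34 for kidney RNA, 0.44 and 0.91 for disomes, -0.07 and 0.05 for brain RNA, and -0.50 and -0.23 for brain footprints, and TMM scaling turned the brain RNA-seq ratio from -0.01 to 0.06. Directions turned for Ighm-202 in kidney RNA-seq (-0.27 to 0.23 with 1 library left out, 0.22 without WT replicate 2, 0.41 without KO 2 and 3), Ighg2c-201 in brain RNA-seq (-0.30 to 0.070, the latter without KO replicate 2), Ighm-202 in brain Ribo-seq (-0.30 to 0.060, the latter without WT replicate 3), and, without WT RNA-seq replicate 2, Igkc (-0.12 to 0.38) and Igkv1-110 (-0.28) in TE, none of them called under those settings. The cause was not tested. Jchain footprints lost their call under most alternatives, with adjusted p of 0.0506 to 0.157.

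With the replicate number as a block, 0 were called in kidney RNA-seq, 5 in kidney Ribo-seq, 0 in disome-seq, 0 in brain RNA-seq, 0 in brain Ribo-seq and 0 in TE, where the numbers are not known to pair samples, and 11 of 12 and 5 of 5 between WT tissues in RNA-seq and Ribo-seq. Over all transcripts the block gave 4010 calls against 5838 for kidney footprints, 252 against 70 for disomes and 80 against 28 for brain footprints. Apart from the losses of Ighd-202 between WT tissues and of Jchain footprints (edgeR adjusted p = 0.0544) it changed no call of a gene described here that was looked at under the alternatives. DESeq2 called 540 transcripts in kidney RNA-seq against 7, 4129 in TE against 0, 3533 against 5838 in kidney Ribo-seq, 359 against 28 in brain Ribo-seq and 23 against 12 in brain RNA-seq. V, J and D segments and most IgG and lambda genes were below the depth needed for a test, and footprints on V segments cannot be assigned to single genes where segments are alike.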
